A study of Mus musculus with 36 samples.

Results

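The genes of the amino acid stress response and of serine synthesis were followed in mouse embryonic stem cells (mESCs) grown on soft or stiff hydrogels or on tissue culture plastic. The set was a list of 32 genes linked to the transcription factor ATF4, taken by name from the gene count table. All 32 were found once among the 49671 genes of the table, and all 32 passed the low-count filter that left 17702 genes for testing. The RNA of 36 libraries was sequenced, in 11 groups of 3 libraries each except for 1 group of 6.

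All libraries came from wild-type mESCs labelled as strain 129m, and no group carried a gene deletion. The hydrogels were StemBond gels, which are polyacrylamide gels to which extracellular matrix protein is covalently tethered, and cells were kept on them in medium with serum. At 24 h there were soft and stiff gels in serum + LIF. At 48 h there were soft and stiff gels in each of 4 media (serum, serum + LIF, serum + PD03, serum + LIF + PD03), and plastic in serum + LIF only. LIF is the cytokine that sustains self-renewal through STAT3, and PD03 is the MEK inhibitor PD0325901, which blocks signalling to ERK. The group of 6 was soft gel in serum + PD03. The labels do not say whether libraries of a group came from separate cultures, so p-values measure the spread between these libraries, which may be technical.

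ATF4 is the effector of the integrated stress response. When amino acids run short or another stress acts, kinases phosphorylate the initiation factor eIF2, general translation slows, and Atf4 mRNA is translated more. ATF4 protein then switches on genes for amino acid uptake and synthesis, including the serine pathway, whose product feeds the folate one-carbon cycle. Because Atf4 is controlled at translation, its mRNA level says little of ATF4 protein, which was not measured here. mESCs have a high demand for serine, glycine and threonine as one-carbon sources.

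Libraries held 10405696 to 26635239 counts. Of the treatment checks, Spry4, an ERK feedback target, had a log2 fold change of -7.82 to -6.77 with PD03 in the 4 comparisons. Socs3, a STAT3 target, was higher with LIF in 3 of 4 comparisons but not past the threshold on soft gel under PD03 (log2 fold change 0.08, edgeR adjusted p = 0.781). Acta2, a stiffness-sensitive actin gene, was lower on soft than on stiff gel in all 5 comparisons. Stem cell markers were high throughout (Pou5f1 at 473.7 to 695.4 CPM, counts scaled to library size). Of markers of other cell types, Lum was at 0 in 24 libraries, and Dcn and Elf5 were at 0 in 3 libraries each. The others were detected in every library, among them Col1a1 at 9.75 to 79.2 CPM, Pax6 at 2.83 to 42.8 CPM and Krt7 at 1.78 to 32 CPM. The sample labels name 3 sequencing pools. Pool 1 held all 24 h and plastic libraries and 1 of 3 stiff serum + LIF libraries at 48 h, pool 2 held the other stiff 48 h libraries and 2 of 6 soft serum + PD03 libraries, and pool 3 held the remaining soft 48 h libraries. Soft against stiff at 24 h lay within 1 pool, whereas at 48 h substrate and pool nearly coincided.

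The DNA element read by ATF4 is the C/EBP-ATF composite element, whose core was searched as TGATGNAA on both strands of RefSeq promoters (GRCm38.p6, 250 bases before to 50 after the start). Of the 28 members with a promoter in that table, 8 held the core (28.6%), against 4.51% of all 27025 genes. The list was chosen for a link to ATF4, so the higher share may follow from that choice and is not a test. These were Trib3, Chac1, Asns, Pycr1, Slc1a4, Slc7a11, Vldlr and Nupr1. Stretches of 5 upstream elements are shown, because these members differ in how they moved in the comparisons below, with the core in capitals (its reverse complement where the element is on the other strand), each written 5′ to 3′ along the gene's strand.
Asns, chr6:7693214-7693243, minus strand, core at -23 from the start: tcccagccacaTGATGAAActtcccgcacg
Chac1, chr2:119351038-119351067, plus strand, core at -193: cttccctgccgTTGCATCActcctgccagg
Pycr1, chr11:120643833-120643862, minus strand, core at -103: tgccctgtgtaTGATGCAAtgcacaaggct
Nupr1, chr7:126625562-126625591, minus strand, core at -110: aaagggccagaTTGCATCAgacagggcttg
Slc7a11, chr3:50443661-50443690, minus strand, core at -66: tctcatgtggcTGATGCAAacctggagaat
Slc7a11 held another core, on the other strand, at -47. A match is a description of the letters and not a measured binding site.

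Members spanned a wide range of levels. Per kilobase of exon, the highest was Eif4ebp1, which encodes the translation repressor 4E-BP1, at a mean of 195.5 CPM per kb over all libraries, followed by Asns (asparagine synthetase) at 64.9 and Mthfd1, the cytosolic trifunctional folate enzyme, at 61.2. Atf4 itself stood at 56.4 CPM per kb and Shmt2, the mitochondrial serine hydroxymethyltransferase, at 55.3. At the other end were the cystine transporter Slc7a11 (0.0617 CPM per kb), the lipoprotein receptor Vldlr (0.114) and the glycine transporter Slc6a9 (0.207), whose library counts went down to 3, 6 and 3 reads, so folds of these 3 genes have wide intervals. The median member had 41.7 CPM against 10 CPM for all genes tested, and small changes are more readily detected at higher counts. Exons of Slc6a9 (27.8% of their length), Cebpb (20.7%) and Psph (10.4%) overlap a gene on the other strand. Smaller overlaps with more abundant genes exist for Atf5 (4.11%, with Nup62 at a mean count of 8255.5) and Ddit3 (3.97%, with Mars at 1503.4). The partners of Psph (Cct6a) and Cebpb (Tmem189) had mean counts of 12284.7 and 495.9. The strand setting of the counting is not given in the sources used here, so reads of these genes and their partners may not be separable.

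PD03 changed 23 to 28 of the 32 members, in both directions. All regulators but Atf4 rose in every comparison, Asns rose 2.14- to 2.47-fold, and Phgdh and Psph of serine synthesis, Mthfd2 and Mthfd1l of the mitochondrial folate path and 4 of 9 amino acid transporters fell throughout. A gene was taken as changed at an adjusted p under 0.05 in edgeR's quasi-likelihood test with Benjamini-Hochberg adjustment over all genes tested, and fold changes are given on the log2 scale with their standard error. With PD03, 14 members were higher and 14 lower on soft gel with LIF (background over all genes tested 27.8% higher and 26.6% lower), 12 higher and 13 lower on stiff gel with LIF (28.3% and 27.8%), 11 higher and 12 lower on soft gel without LIF (29% and 28.5%), and 10 higher and 14 lower on stiff gel without LIF (28.4% and 27.4%). As shares of the 32 members these were 31.2% to 43.8% in each direction. In all 4 comparisons with 1 sign, 8 members (25%) were higher, against 21.5% of all genes, and 11 (34.4%) were lower, against 19.9%. The median log2 change of the members lay between -0.10 and 0.04 and that of all genes between -0.01 and 0.01, while the median size of change was 0.49 to 0.70 for members and 0.39 to 0.44 for all genes. The 4 comparisons used no library in common.

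**Figure D1:**
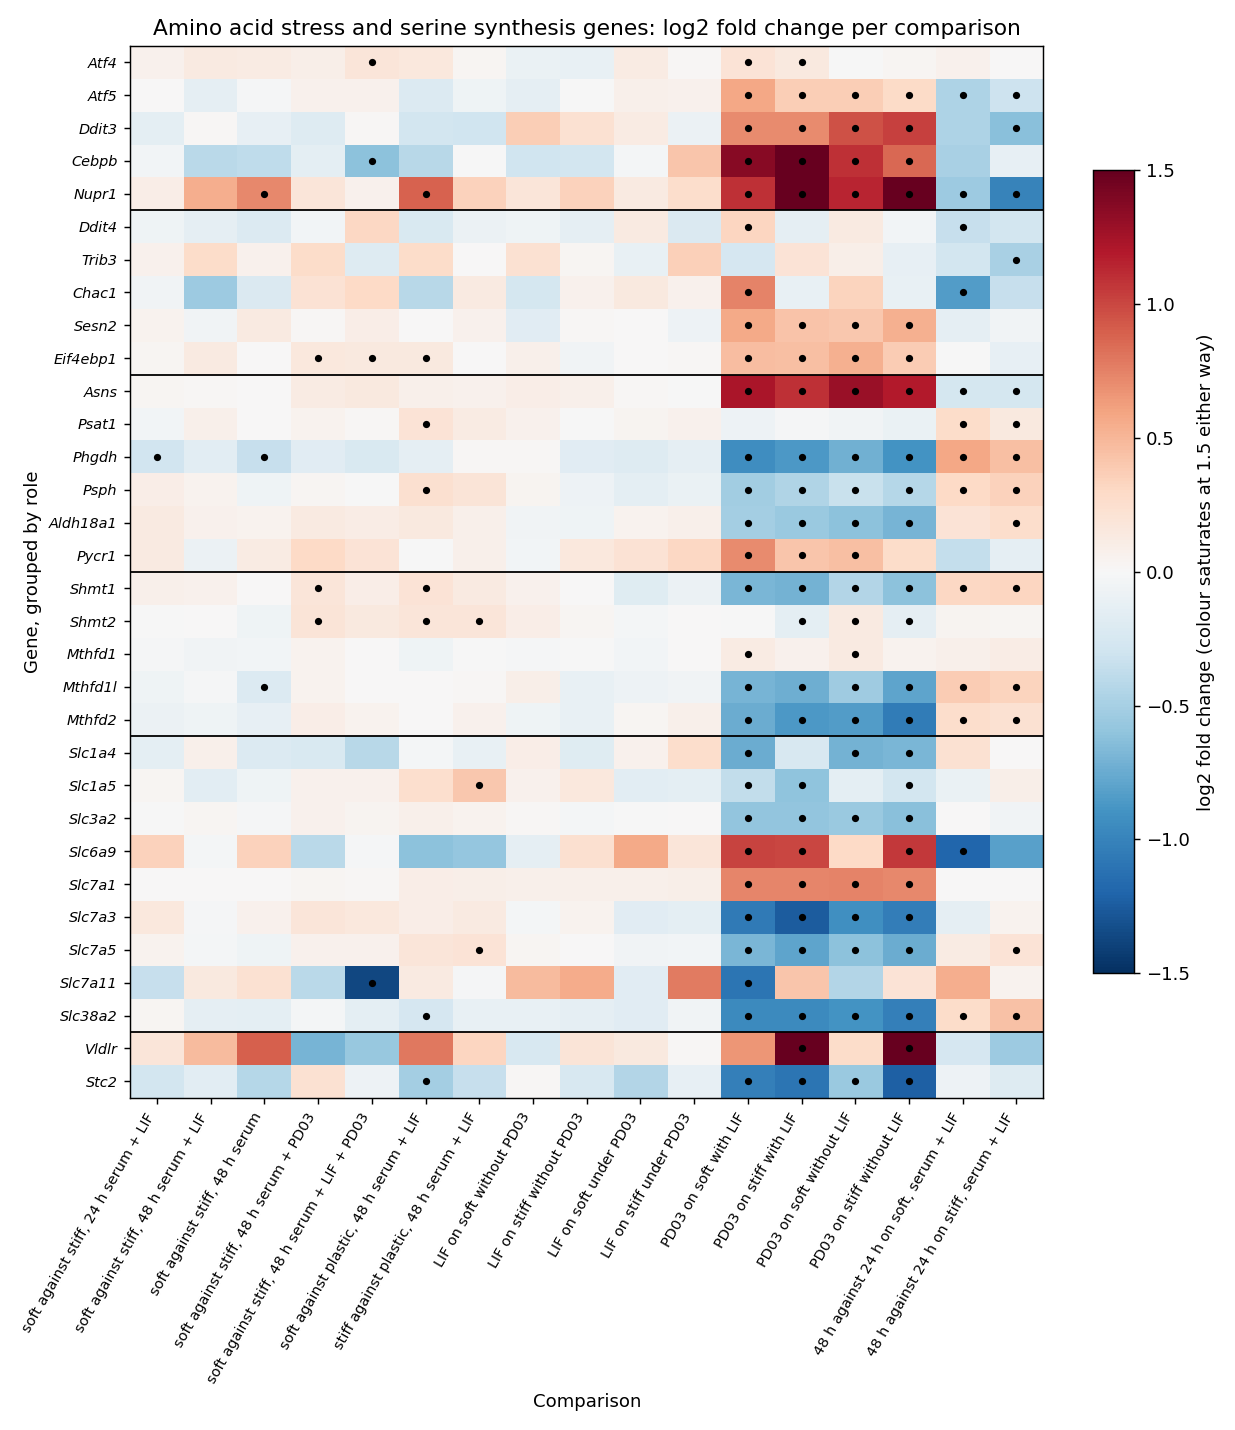
Heat map of log2 fold change for the 32 genes (rows, grouped by role between black lines: regulators, feedback genes, amino acid synthesis, folate one-carbon, transporters, other targets) in 17 comparisons (columns), with a dot where the edgeR adjusted p was under 0.05. Most dots are in the 4 PD03 columns, which hold 23 to 28 each, and none is in the 4 LIF columns.

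Of the regulators, Atf4 mRNA (chromosome 15, 80255184 to 80257541, plus strand, GRCm38) moved least. Its level in serum + LIF on stiff gel was 129.9, 117.8 and 115.9 CPM and rose with PD03 to 134.9, 134.9 and 134.4 CPM (log2 fold change 0.15 ± 0.05 SE, adjusted p = 0.0141, and 0.0774 without stiff serum + LIF library 3). On soft gel with LIF it was 0.21 ± 0.05 higher, while without LIF the values were -0.01 ± 0.05 on soft and 0.03 ± 0.05 on stiff gel, neither past the threshold. Whether the PD03 effect differed between media with and without LIF was not tested. Without PD03 and with it, all libraries lay between 115.5 and 158.2 CPM. The remaining regulators rose in all 4 comparisons. Atf5, a related factor that also needs eIF2 phosphorylation for its translation, was 0.29 to 0.58 log2 units higher. Ddit3 encodes CHOP, the factor tied to prolonged stress, and gained 0.71 to 1.03. Cebpb, a bZIP partner of ATF4, gained 0.86 to 1.55, and Nupr1, a small stress-induced nuclear protein, gained 1.09 to 1.67. Nupr1 stood at 1.42, 1.53 and 1.62 CPM on stiff gel in serum and at 5.70, 5.07 and 3.66 CPM with PD03, with no overlap, which is a 3.19-fold rise (adjusted p = 3.2e-10).

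The genes that restrain the response or growth divided. Sesn2, a leucine sensor that inhibits mTORC1, rose by 0.41 to 0.57 log2 units in all 4 comparisons, and Eif4ebp1 by 0.38 to 0.53. Eif4ebp1 went from 354.9, 362.3 and 342.3 CPM to 487.5, 481.4 and 475.5 CPM on stiff gel with LIF. By contrast, Trib3, the pseudokinase that feeds back on ATF4, passed the threshold in none (log2 fold changes -0.25 to 0.21). Ddit4, another mTORC1 inhibitor, and Chac1, which degrades glutathione, passed it only on soft gel with LIF, at 0.32 ± 0.12 (adjusted p = 0.0216) and 0.74 ± 0.25 (adjusted p = 0.0099), and both of these calls were lost without soft serum + LIF library 2 (adjusted p = 0.065 and 0.0748) or library 3 (0.0657 and 0.0535), as was Ddit4 without soft serum + LIF + PD03 library 1 (0.158) and Chac1 without library 3 of that group (0.0557). Whether these 2 changes differed between substrates was tested, and neither difference passed the threshold.

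Asns (chromosome 6, 7675169 to 7693254, minus strand, GRCm38) had the smallest adjusted p of the genes that rose. On stiff gel in serum its level was 103.7, 119.0 and 102.3 CPM, and with PD03 it was 241.3, 251.5 and 245.2 CPM. On soft gel in serum it was 104.1, 113.1 and 108.1 CPM, and the 6 libraries with PD03 ranged from 257.6 to 275.3 CPM with a median of 268 CPM. All libraries with PD03 thus lay above all libraries without it, including those at 24 h (125.9 to 147.0 CPM). The fold was 2.14 to 2.47 in the 4 comparisons, with standard errors of 0.05 to 0.06 on the log2 scale and adjusted p from 3.68e-27 to 3.63e-22.

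The 3 enzymes that make serine from 3-phosphoglycerate did not move together. Phgdh (chromosome 3, 98313170 to 98339990, minus strand), which catalyses the first and committed step, fell from 69.5, 76.7 and 75.9 CPM on stiff gel with LIF to 39.5, 44.8 and 38.0 CPM with PD03. Its level with PD03 was 0.524 to 0.608 of that without (log2 fold change -0.93 to -0.72). Psat1, the aminotransferase of the second step, stood at 161.0, 165.6 and 158.1 CPM without and 161.4, 160.9 and 156.0 CPM with PD03 in the same groups. No PD03 comparison of Psat1 passed the threshold, and the 95% intervals of its log2 change reached no lower than -0.21. Psph, the phosphatase of the last step, fell by 0.33 to 0.52 log2 units in the 4 comparisons. Proline synthesis likewise divided, since Aldh18a1, which makes its precursor pyrroline-5-carboxylate, fell by 0.51 to 0.70 log2 units, and Pycr1, the mitochondrial reductase that completes it, was higher in 3 comparisons (0.42 to 0.71) and at 0.27 ± 0.14 on stiff gel without LIF (adjusted p = 0.0927).

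**Figure D2:**
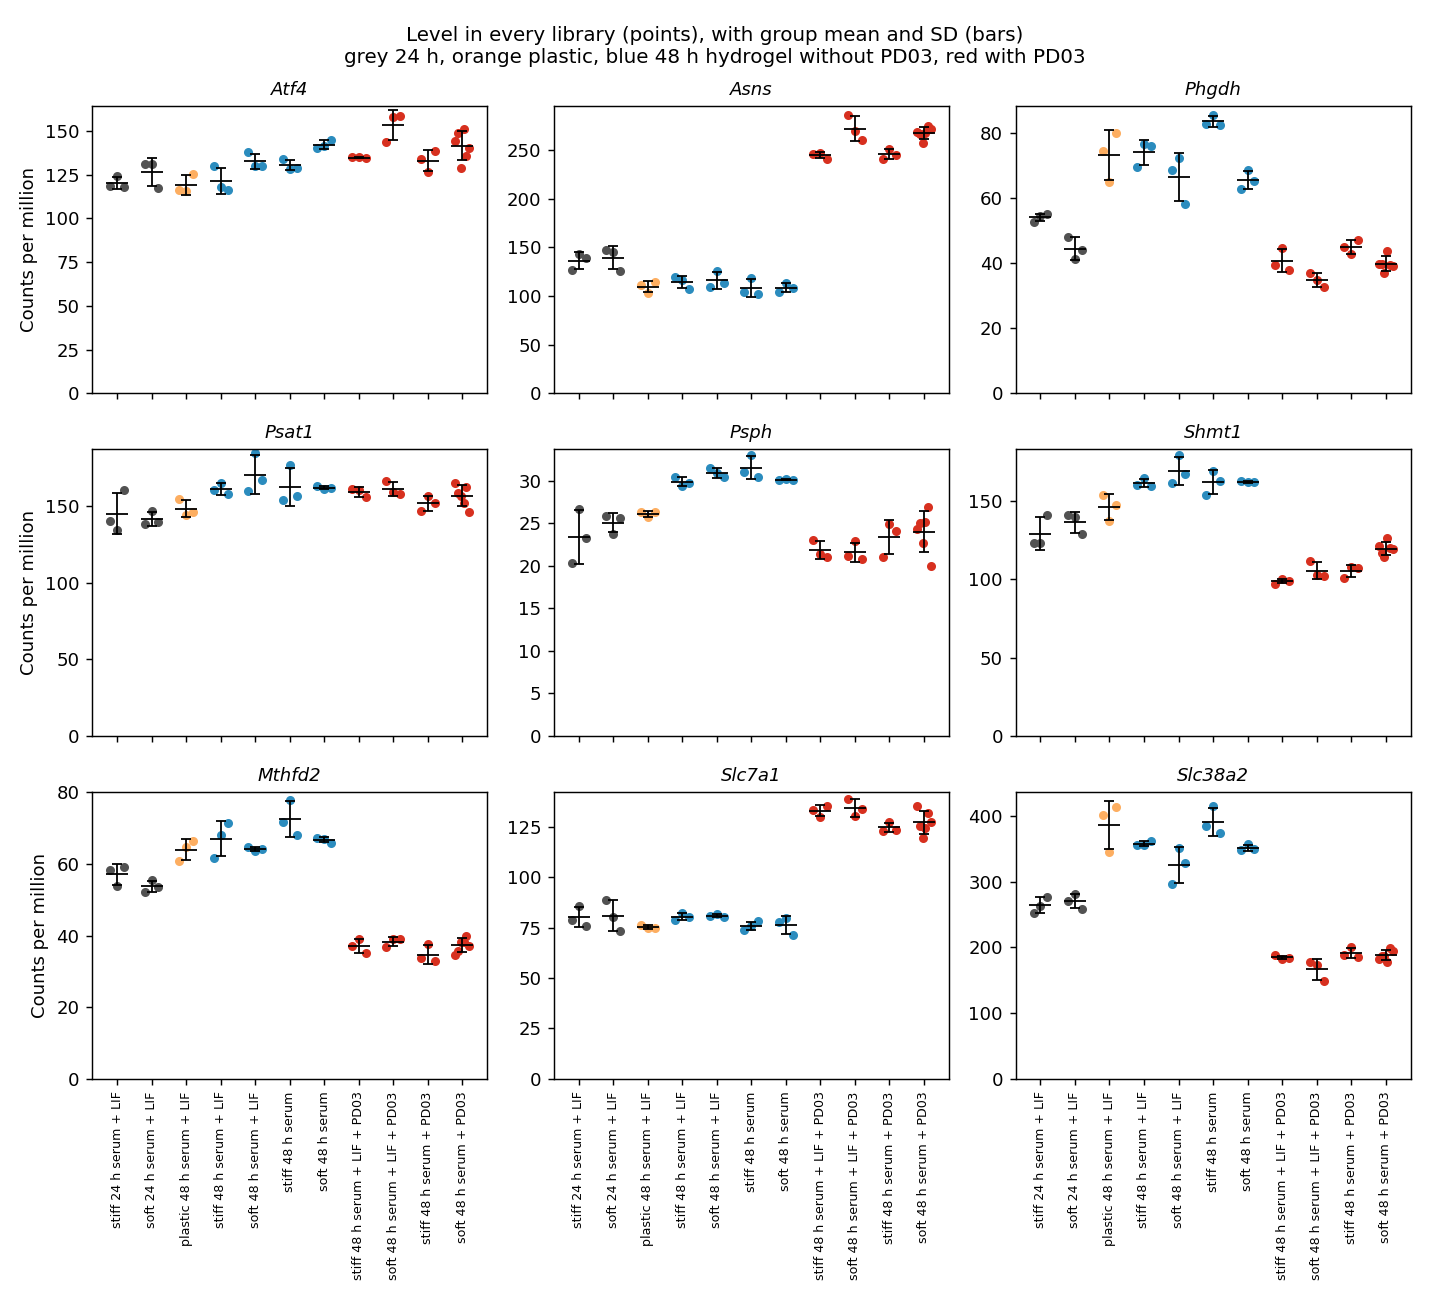
Level of 9 genes in every library (points, in CPM on axes that start at 0), in the 11 groups along the horizontal axis, with the group mean and SD as black bars. Asns and Slc7a1 are higher in the red groups with PD03, Phgdh, Psph, Shmt1, Mthfd2 and Slc38a2 are lower there than in the other hydrogel groups at 48 h (the 24 h groups overlap them for Phgdh, Psph and Shmt1), and Psat1 and Atf4 stay within 134.6 to 184.9 and 115.5 to 158.2 CPM across all libraries.

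In the folate cycle, serine gives its carbon to tetrahydrofolate through Shmt1 in the cytosol and Shmt2 in mitochondria. Shmt1 fell in all 4 comparisons, by 0.44 to 0.71 log2 units, for example from 160.2, 164.4 and 159.5 CPM to 97.2, 99.9 and 99.0 CPM on stiff gel with LIF. Shmt2 changed little and not in 1 direction: it was at -0.15 ± 0.05 and -0.13 ± 0.05 on stiff gel with and without LIF (adjusted p = 0.00766 and 0.0238), at 0.13 ± 0.04 on soft gel without LIF (adjusted p = 0.00858) and at -0.01 ± 0.05 on soft gel with LIF. Among the mitochondrial enzymes downstream, Mthfd2, the dehydrogenase and cyclohydrolase, fell by 0.75 to 1.05, to about 0.481 of its level on stiff gel without LIF, where it went from 71.6, 77.9 and 68.0 CPM to 33.7, 37.6 and 32.8 CPM. Mthfd1l, the formate-producing synthetase, fell by 0.53 to 0.79. The cytosolic enzyme Mthfd1 was slightly higher on soft gel (0.12 ± 0.05 with LIF and 0.14 ± 0.04 without LIF), and its values of 0.07 and 0.05 on stiff gel were not past the threshold. Each Shmt2 and Mthfd1 call was lost without at least 1 library. Shmt2 was lost on stiff gel with LIF without library 1 of either group (adjusted p up to 0.0678), on stiff gel without LIF without serum library 2 or serum + PD03 library 1 or 3 (up to 0.348), and on soft gel without serum library 1 or 2 (up to 0.141). Mthfd1 was lost without soft serum library 1 (0.054) and, with LIF, without library 1 or 3 of either group (up to 0.129).

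Of 9 transporters, 4 fell and 1 rose in every PD03 comparison. Slc38a2, the neutral amino acid carrier SNAT2 that is itself induced by amino acid shortage, fell from 348.2, 356.6 and 349.8 CPM on soft gel in serum to between 178.1 and 199 CPM with PD03 (median 186.6), and its level was 0.490 to 0.534 of that without PD03. Slc7a5 (LAT1) and Slc3a2, the heavy chain it pairs with, fell together, by 0.61 to 0.79 and 0.56 to 0.63 log2 units. The 2 cationic amino acid transporters went opposite ways. Slc7a3 (CAT3) fell by 0.92 to 1.25, whereas Slc7a1 (CAT1) rose by 0.72 to 0.74 in each comparison, for example from 74.0, 75.6 and 78.1 CPM to 123.1, 127.2 and 123.6 CPM on stiff gel without LIF. The neutral exchangers Slc1a4 and Slc1a5 each fell in 3 comparisons, with -0.24 ± 0.15 for Slc1a4 on stiff gel with LIF and -0.15 ± 0.09 for Slc1a5 on soft gel without LIF not past the threshold. For Slc1a5 there, PD03 library 3 stood at 28 CPM and the other PD03 libraries at 19.1 to 21.1 CPM. The libraries without PD03 were at 23.3 to 24.3 CPM. The rare Slc6a9 was higher in 3 (1.01 ± 0.38 on soft gel with LIF and 1.06 ± 0.39 on stiff gel without LIF) and Slc7a11 lower in 1 (-1.09 ± 0.42 on soft gel with LIF, adjusted p = 0.0239). These rarer transporter calls also rested on single libraries: Slc6a9 was lost without some library in each of its 3 comparisons (soft library 1 or 3 with LIF or library 1 with LIF and PD03, stiff library 1 of either group with LIF, library 3 of either group without LIF, adjusted p up to 0.182), Slc7a11 without soft serum + LIF library 1 or library 1 or 3 with PD03 (up to 0.0989), and Slc1a5 on stiff gel without LIF without serum library 2 or 3 or serum + PD03 library 3 (up to 0.178). Of the remaining targets, Stc2, a secreted glycoprotein, fell by 0.56 to 1.22 in all 4, and Vldlr rose on stiff gel (1.70 ± 0.32 with LIF and 1.87 ± 0.32 without LIF), to 2.11 CPM in each medium, with 0.66 ± 0.32 and 0.27 ± 0.27 on soft gel not past the threshold.

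**Figure D3:**
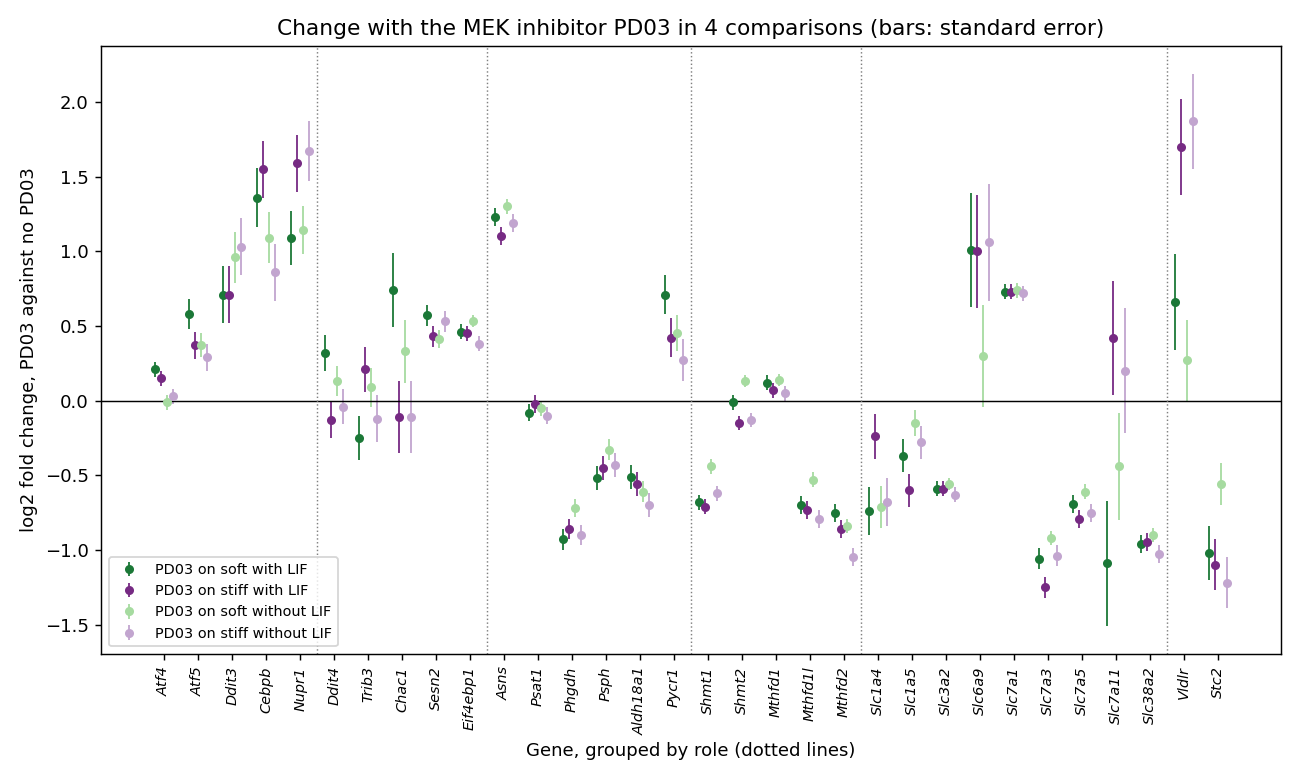
Log2 fold change with PD03 (vertical axis, with standard error) for the 32 genes by role, in the 4 comparisons of soft or stiff gel with or without LIF (colours). Asns, Slc7a1, Sesn2, Eif4ebp1, Atf5, Ddit3, Cebpb and Nupr1 are higher and 11 genes lower past the threshold in every comparison, while the 4 colours spread most for the rare Slc7a11 and Vldlr.

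Markers of cell state moved with PD03 too. Summed over 8 stem cell markers, the level went from 2456.4 to 3153.3 CPM in hydrogel libraries without PD03 at 48 h to 4204.7 to 4847.7 CPM with it, led by Nanog and Tfcp2l1. On soft gel with LIF, 7 of 8 markers had a higher group mean with PD03. On stiff gel with LIF, Pou5f1 (582.7 against 596.1 CPM) and Zfp42 (480.8 against 511.1 CPM) were lower with PD03. Without LIF each marker was higher with PD03 on both gels. The sum of 3 neural markers went from between 43.4 and 73 CPM to between 14.4 and 20 CPM, and that of 3 trophoblast markers from between 4.12 and 10.1 CPM to between 17.3 and 43.1 CPM. All 3 neural markers were at a lower and all 3 trophoblast markers at a higher group mean with PD03 in each of the 4 comparisons. Primitive endoderm markers (4 genes) summed to 21 to 33.4 CPM without and 12.3 to 19.5 CPM with PD03, and the 6 fibroblast markers to 22.1 to 30.1 and 27 to 40.3 CPM on soft and 32.7 to 53.1 and 64.7 to 88.5 CPM on stiff gel. Sox7 made up most of the endoderm fall, whereas Gata6 had a higher group mean with PD03 on stiff gel (10.7 against 7.5 CPM with LIF and 10.1 against 6.76 CPM without). Col1a1 and Col1a2 carried the fibroblast rise, and on stiff gel with LIF the other 4 had lower group means with PD03 (Thy1 at 2.74 against 11.5 CPM, Dcn at 0.182 against 0.652 CPM, Col3a1 at 0.73 against 0.756 CPM and Lum at 0 against 0.0232 CPM). In bulk RNA, fewer cells of a type and less RNA per cell cannot be told apart, and the part of these shifts in the member changes was not tested. PD03 on soft gel with LIF lay wholly in pool 3 and PD03 on stiff gel without LIF wholly in pool 2, and these 2 gave 28 and 24 members past the threshold.

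Between soft and stiff gel few members differed. In serum + LIF no member differed between soft and stiff gel at 48 h (background 0.446% of genes higher and 0.333% lower by edgeR, with 6 members and 1929 genes at an unadjusted p under 0.05, and 0 members past the threshold by DESeq2). At 24 h none was higher (background 1.03%) and 1 was lower (2.52%). In serum 1 was higher (2.08%) and 2 were lower (2.77%), in serum + PD03 3 were higher (2.13%) and 0 lower (3.42%), and in serum + LIF + PD03 2 were higher (2.8%) and 2 lower (4.82%). That made 11 calls in 9 members over the 5 comparisons (4 media at 48 h and 1 at 24 h), and 23 members were past the threshold in none. For the 20 members with a mean of at least 20 CPM, the 95% intervals of the values not past the threshold lay within -0.37 and 0.30 log2 units in all 5 comparisons.

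Phgdh was the member lower on soft gel most often. At 24 h it was at 48.2, 41.3 and 44.0 CPM on soft and 52.8, 54.5 and 55.0 CPM on stiff gel (log2 fold change -0.29 ± 0.07, adjusted p = 0.0153), with no overlap and all 6 libraries in 1 pool. In serum at 48 h it was at 62.8, 68.5 and 65.3 CPM on soft and 82.9, 85.6 and 82.5 CPM on stiff gel (-0.35 ± 0.07, adjusted p = 0.000488). In the other 3 comparisons its value was -0.16 to -0.23, not past the threshold, so the sign was the same in 5 of 5 comparisons. The 24 h call was lost without stiff library 2 (adjusted p = 0.0724) or 3 (0.0777) or soft library 2 (0.165) or 3 (0.0808), whereas the serum call held without any 1 library (adjusted p at most 0.0119). With the sequencing pool as a term, the serum call did not hold in all 45 ways of assigning libraries to pools (adjusted p up to 0.425), and the 24 h comparison, within 1 pool, is not tested by that term. Psat1 and Psph, the next enzymes of the same path, were past the threshold in none of the 5, at -0.04 to 0.08 and -0.07 to 0.10.

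Eif4ebp1 was higher on soft gel in both PD03 media, by 0.16 ± 0.04 without LIF (adjusted p = 0.0113) and 0.15 ± 0.05 with LIF (adjusted p = 0.0441). Its 6 soft libraries in serum + PD03 ranged from 509.8 to 563.4 CPM (median 531.3) above 455.9, 482.5 and 483.7 CPM on stiff gel. Shmt1 and Shmt2 were also higher on soft gel in serum + PD03, by 0.18 ± 0.05 (adjusted p = 0.0103) and 0.19 ± 0.04 (adjusted p = 0.00377). Atf4 was 0.18 ± 0.05 higher on soft gel in serum + LIF + PD03, at 143.4, 157.9 and 158.2 CPM against 134.9, 134.9 and 134.4 CPM (adjusted p = 0.0211), and its sign was positive in 5 of 5 comparisons. In that medium Cebpb was lower (-0.61 ± 0.17, adjusted p = 0.0145), at 6.36, 5.43 and 5.88 CPM against 11.1, 7.37 and 8.45 CPM. Slc7a11 was lower there too (-1.36 ± 0.40), at 0.388, 0.698 and 0.490 CPM against 1.09, 1.47 and 1.49 CPM (adjusted p = 0.0227). In serum Nupr1 was 0.72 ± 0.21 higher (adjusted p = 0.0356) and Mthfd1l was lower (-0.21 ± 0.06, adjusted p = 0.0127). Over the 5 comparisons, 7 members had a positive sign throughout (21.9%, against 9.39% of all genes) and 2 a negative one (6.25%, against 9.42%).

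**Figure D4:**
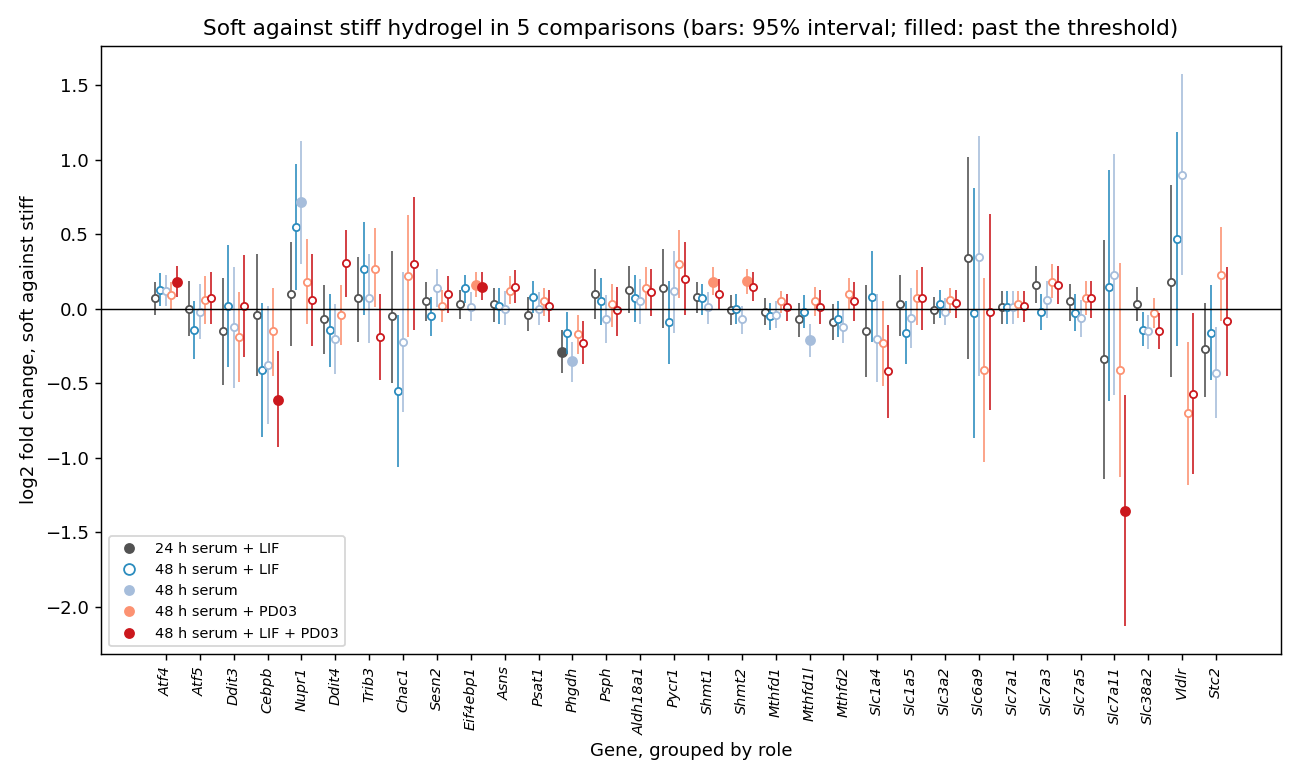
Log2 fold change of soft against stiff gel (vertical axis, with 95% interval) for the 32 genes by role in 5 comparisons (colours), filled where past the threshold and open otherwise. Few points are filled, 11 of 160, and the intervals are wide for the rare Slc6a9, Slc7a11 and Vldlr.

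Of these 11 calls, 10 were lost on leaving out at least 1 library, and 10 were lost under at least 1 assignment of the pool term. The call kept in every leave-out was Phgdh in serum, which was lost with the pool term. The call left under the pool term was Phgdh at 24 h, which lies within 1 pool and is not tested by that term. Shmt1 and Eif4ebp1 in serum + PD03 were lost without stiff library 1 (adjusted p = 0.132 and 0.157) and Shmt2 without stiff library 3 (0.0546). In serum + LIF + PD03, Cebpb was lost without stiff library 1 (0.191) or soft library 2 (0.0802), Atf4 without any library but soft library 1 (up to 0.138), Slc7a11 without stiff library 2 or 3 or soft library 1 or 3 (up to 0.117), and Eif4ebp1 without any of the 6 (up to 0.235). In serum, Mthfd1l was lost without stiff library 2 (0.173) or soft library 1 or 2 (0.0627 and 0.0732), and Nupr1 without any library but soft library 1 (up to 0.237). Summed over 6 fibroblast markers, led by Col1a1, soft libraries held 22.1 to 40.3 CPM and stiff libraries 32.7 to 88.5 CPM, and at 48 h in serum + LIF the ranges were 24.3 to 30.1 and 32.7 to 39.1 CPM. At 24 h they were 23.5 to 35.3 CPM on soft and 49.6 to 57 CPM on stiff gel, with the stem cell markers at 2927.3 to 3291.8 and 2647.8 to 2697.7 CPM. By gene, Col1a1, Col1a2 and Dcn had lower group means on soft gel at 48 h in serum + LIF (Col1a1 at 13.5 against 21.7 CPM). Thy1 was nearly equal there (11.4 and 11.5 CPM). Col3a1 (0.828 against 0.756 CPM) and Lum (0.0844 against 0.0232 CPM) were higher on soft gel. The part of these markers in the substrate differences was not tested.

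Plastic, the stiff surface of routine culture, was compared with both gels in serum + LIF at 48 h. On soft gel 6 members were higher (background 5.29%) and 2 lower (6.47%), and on stiff gel 3 were higher (1.95%) and 0 lower (3.59%). Shmt2 was higher on both gels, by 0.18 ± 0.05 on each (adjusted p = 0.0122 and 0.0258), at 186.9, 179.1 and 169.0 CPM on soft, 180.2, 176.8 and 176.7 CPM on stiff gel and 160.0, 159.2 and 152.9 CPM on plastic. On soft gel Psat1 (0.20 ± 0.06), Psph (0.24 ± 0.08), Shmt1 (0.21 ± 0.05), Eif4ebp1 (0.15 ± 0.05) and Nupr1 (0.89 ± 0.22) were also higher, and Slc38a2 (-0.25 ± 0.06) and Stc2 (-0.51 ± 0.16) were lower. Stiff gel had more of the transporters Slc1a5 (0.41 ± 0.11) and Slc7a5 (0.20 ± 0.06) than plastic. Both comparisons share the plastic libraries, which held 69.1 to 78.8 CPM of the fibroblast markers. Most of that was Col1a1 (group mean 57.9 CPM). Thy1 was lower on plastic (7.15 CPM) than on soft (11.4 CPM) or stiff gel (11.5 CPM), and the remaining fibroblast markers were higher on plastic than on either gel. No soft library at 48 h shared a pool with plastic, so soft gel and pool cannot be told apart here. Leaving out 1 library ended 10 of the 11 calls at least once, Nupr1 being the exception (adjusted p at most 0.0269). On soft gel, Psat1 and Shmt1 were lost without library 2 of either group (adjusted p up to 0.162 and 0.0638), Shmt2 and Slc38a2 without plastic library 3 or soft library 1 (up to 0.0828 and 0.0967), Eif4ebp1 without plastic library 1 or 3 or soft library 1 or 2 (up to 0.213), Psph without any but soft library 3 (up to 0.106) and Stc2 without any of the 6 (up to 0.128). On stiff gel, Shmt2 was lost without any of the 6 (up to 0.157), Slc7a5 without any but plastic library 1 (up to 0.4) and Slc1a5 without library 1 or 2 of either group (up to 0.1).

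No member passed the threshold for LIF. The count was 0 on soft gel without PD03 (background 0.0169% of genes in either direction), on stiff gel without PD03 (1.41%), on soft gel under PD03 (0.107%) or on stiff gel under PD03 (0.514%) by edgeR, with 2, 2, 6 and 5 members at an unadjusted p under 0.05, and DESeq2 also called 0 in each. For the 20 members at 20 CPM or more, the 95% intervals lay between -0.37 and 0.36 log2 units in all 4 comparisons. Asns, for example, was at 108.9, 125.6 and 113.9 CPM with LIF and 104.1, 113.1 and 108.1 CPM without it on soft gel.

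From 24 h to 48 h in serum + LIF, the 3 serine synthesis genes and 3 of 5 folate genes rose on both gels (Shmt2 and Mthfd1 did not pass the threshold), while Asns, Atf5 and Nupr1 fell on both. In these comparisons 7 members were higher (background 12.9%) and 6 lower (11.4%) on soft gel, and 9 were higher (12.6%) and 5 lower (13%) on stiff gel. The 7 that were higher on both gels were Phgdh, Psat1, Psph, Shmt1, Mthfd1l, Mthfd2 and Slc38a2, that is, the 3 serine synthesis enzymes, 3 folate enzymes and a neutral amino acid carrier. Phgdh rose by 0.58 ± 0.07 on soft (adjusted p = 3.84e-08) and 0.45 ± 0.07 on stiff gel (adjusted p = 1.8e-06), from 52.8, 54.5 and 55.0 CPM to 69.5, 76.7 and 75.9 CPM on the latter. The 3 that were lower on both gels were Asns (-0.26 ± 0.06 on each), Atf5 (-0.46 ± 0.10 and -0.31 ± 0.09) and Nupr1, which was at 0.685 and 0.501 of its 24 h level (adjusted p = 0.0316 and 9.69e-05). Atf4 was at 0.07 ± 0.06 and 0.01 ± 0.05, neither past the threshold. Of these, Nupr1 on soft gel was lost without any library but soft 48 h library 2 (adjusted p up to 0.165), Psat1 on stiff gel without any but stiff 24 h library 3 (up to 0.306), Atf5 on stiff gel without stiff 24 h library 2 (0.111) and Mthfd2 on stiff gel without stiff 48 h library 3 (0.054).

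**Figure D5:**
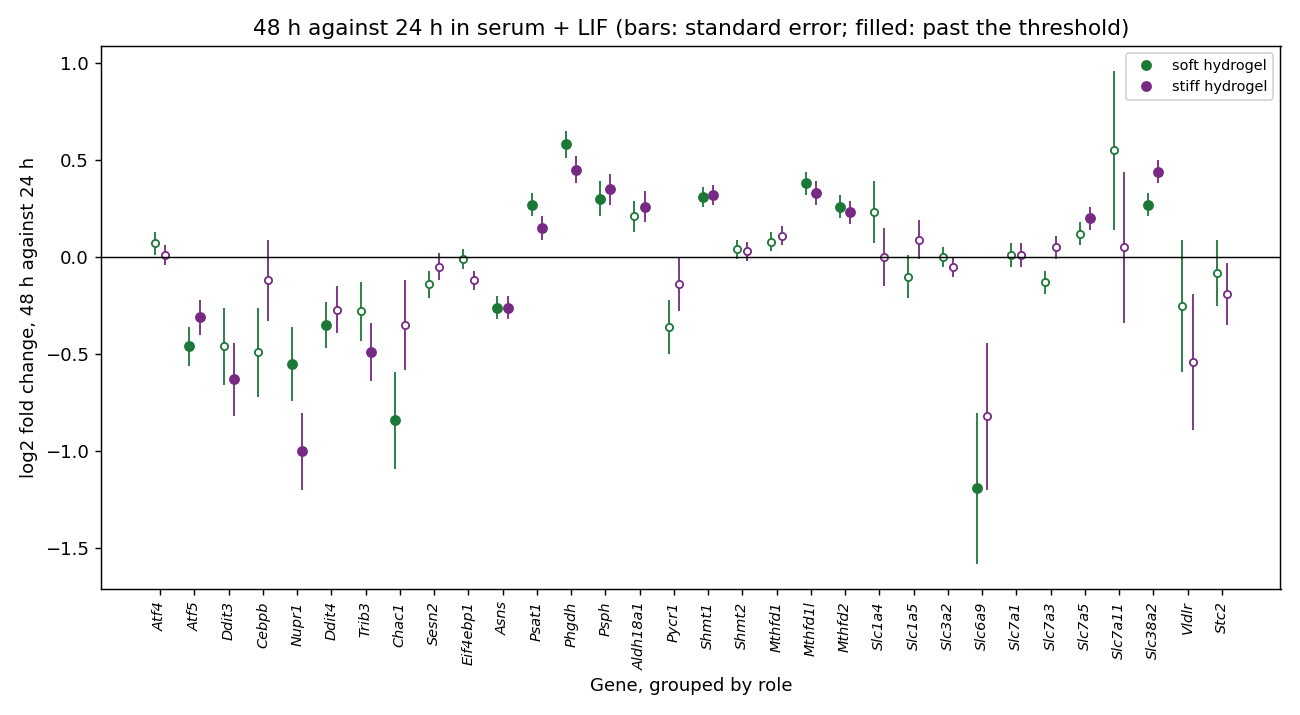
Log2 fold change from 24 h to 48 h in serum + LIF (vertical axis, with standard error) for the 32 genes by role, on soft and stiff gel (colours), filled where past the threshold. Serine synthesis and folate genes are mostly above 0 and the regulators mostly below 0, with Nupr1 lowest on stiff gel among genes past the threshold there.

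The PD03 comparisons without LIF share no library with the time comparisons. Of the 7 members higher at 48 h on both gels, 6 were lower with PD03 in both of those comparisons, the exception being Psat1, and the 3 that were lower at 48 h were higher with PD03 in both. Over all genes, 61.5% of the 1466 that were higher at 48 h on both gels were lower with PD03 in both, and 58.4% of the 1227 that were lower at 48 h were higher with PD03. For soft gel, time and pool coincide and cannot be told apart. With the pool as a term, 0 to 3 members were past the threshold on soft gel and 7 to 9 on stiff gel, and Phgdh, Shmt1, Mthfd1l, Slc38a2 and Nupr1 were called on stiff gel under every assignment.

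A further 4 tests asked whether 2 of these effects differed from each other. The difference of the PD03 effect between soft and stiff gel passed the threshold for 1 member without LIF (background 0.797% of genes) and for 0 with LIF (1.07%). The member was Shmt2, whose PD03 effect was 0.26 ± 0.07 log2 units higher on soft than on stiff gel (adjusted p = 0.0402). It went from 160.1, 166.0 and 172.0 CPM to between 171.5 and 192.9 CPM (median 181.4) on soft gel and from 168.5, 189.3 and 167.0 CPM to 157.1, 166.6 and 154.6 CPM on stiff gel. This call was lost in 10 of 15 leave-outs, with adjusted p up to 0.319 without stiff serum library 2. No member passed for the difference of the LIF effect between gels without PD03 (0.0847%) or of the time effect between gels (0.254%) by edgeR or DESeq2, with 1 and 2 members at an unadjusted p under 0.05. For the difference of the PD03 effect with LIF, 7 members had an unadjusted p under 0.05 and DESeq2 called 0.

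Other genes of the same pathways were read from fixed lists, to be set against the 27.8% to 29% of all genes that were higher and the 26.6% to 28.5% that were lower with PD03. Of 11 further ATF4 targets tested, 5 to 7 were higher and 3 or 4 lower, the lower share being near that background. Atf3, a stress factor downstream of ATF4, rose by 1.36 to 1.74 log2 units, and Gadd45a, a growth arrest gene, fell by 1.57 to 2.04. Gdf15, a stress cytokine, rose in 3 of 4 comparisons (1.24 to 2.12 in all 4, with adjusted p = 0.0525 on stiff gel with LIF). Of 20 aminoacyl-tRNA synthetases, a class that includes ATF4 targets, 2 to 5 were higher and 10 to 12 lower (background 27.8% to 29% and 26.6% to 28.5%). The largest mean changes were falls of Farsb (-0.61 to -0.48), Farsa (-0.52 to -0.38) and Hars (-0.49 to -0.31). Aars (0.30 to 0.40) and Yars (0.18 to 0.37) were higher in all 4 comparisons. In the eIF2 list of 14 kinases, phosphatase subunits and exchange factors, 6 to 8 were higher (background 27.8% to 29%) and 2 to 5 lower, the latter around the background of 26.6% to 28.5%. Eif2ak3, which encodes the ER stress kinase PERK, rose by 0.22 to 0.30, while Eif2s1, the eIF2 alpha subunit, and Impact, an inhibitor of the GCN2 pathway, fell (-0.42 to -0.25 and -0.37 to -0.25).

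Of 20 ER chaperone and unfolded protein response genes, 10 to 13 were higher and 2 lower with PD03 (here and for the next 3 lists against a background of 27.8% to 29% higher and 26.6% to 28.5% lower), with Atf6, an ER stress sensor, at 0.62 to 0.65, and Pdia6, a disulphide isomerase, and Sel1l, of ER-associated degradation, at 0.32 to 0.43 and 0.33 to 0.43. In the list of 17 other one-carbon and glycine genes, 4 or 5 were higher and 9 lower. Slc25a32, the mitochondrial folate carrier, fell by 0.88 to 1.26, beside Mthfd2 and Mthfd1l above. Aldh1l1, the cytosolic formyl-tetrahydrofolate dehydrogenase, rose by 1.48 to 1.72, and Amt, of the glycine cleavage system, by 0.66 to 0.90. Of 10 proline, glutamine and aspartate enzymes, 2 or 3 were higher and 7 lower, among them Prodh (proline dehydrogenase, -1.98 to -1.84) and Glul (glutamine synthetase, -1.96 to -1.79). Of 15 other amino acid transporters, 5 to 7 were higher and 6 or 7 lower (same background), and these included the largest shifts among the genes named from the lists. Slc7a7, the light chain of a cationic amino acid exchanger, was lower (-4.51 to -4.12), the glutamate transporter Slc1a3 too (-3.14 to -2.59), and the glutamate transporter Slc1a1 was higher (3.30 to 4.33).

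Between soft and stiff gel, most of the same lists gave few calls. At 24 h the 7 lists held 2 genes higher and 1 lower of 107, near the background of 1.03% and 2.52%. At 48 h in serum + LIF none was past the threshold (0.446% and 0.333%). Other amino acid transporters had 4 of 15 lower in serum + LIF + PD03 (background 4.82%) and 2 lower in serum + PD03 (3.42%). None was higher in either medium (2.8% and 2.13%). One-carbon and glycine genes had 2 of 17 higher in each of these media. In serum, 2 of 20 tRNA synthetases were lower (2.77%). Tdh, threonine dehydrogenase, which supplies glycine in mESCs, was higher on soft gel in 3 of 4 media at 48 h, by 0.22 ± 0.05 in serum (adjusted p = 0.00312), 0.34 ± 0.04 in serum + PD03 (adjusted p = 1.84e-07) and 0.32 ± 0.05 in serum + LIF + PD03 (adjusted p = 5.34e-06). Atf3 was lower on soft gel in both PD03 media (-0.65 ± 0.18 and -0.92 ± 0.20). Slc7a8, a neutral amino acid exchanger, was lower there too (-0.74 ± 0.19 and -0.69 ± 0.21). The transporter Slc38a4 was lower in both media as well (-0.22 ± 0.04 and -0.25 ± 0.05). Map1lc3b, an autophagy gene, was higher on soft gel at 24 h and in serum at 48 h, but past the threshold in neither PD03 medium. Its log2 fold changes over all soft against stiff comparisons were 0.05 to 0.18. The calls of Tdh, Atf3, Slc7a8 and Slc38a4 were all at 48 h, where substrate and pool nearly coincided, and none was past the threshold at 24 h. Calls of list genes were not rerun with single libraries left out or with the pool term. From 24 h to 48 h, 14 of 20 tRNA synthetases were higher and 0 lower on soft gel (background 12.9% and 11.4%), and 12 were higher and 2 lower on stiff gel (12.6% and 13%).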

How the data were processed

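RNA-seq gene counts of 36 libraries of mESCs were used. The authors deposited raw counts per gene in 1 table, made according to the submitters' processing notes with STAR 2.5.2a on mm10 and HTSeq, with DESeq named for their own tests. The strand setting is not given in the sources used here. All columns matched a group, but headers carry no replicate number, so library numbers are names only and columns could not be tied to sequencing pools within groups split over pools. The members and gene lists were chosen with earlier results of these data known.

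Counts were fitted in R 4.3.3 with edgeR 4.0.16 (quasi-likelihood test, TMM scaling) in 1 model over all 36 libraries, with filterByExpr leaving 17702 genes, which held 99.92% of the counts, and Benjamini-Hochberg adjustment over these (threshold 0.05). The fit was tested on simulated data. Levels are CPM with TMM library sizes. Alternatives were DESeq2 1.42.0, RLE scaling, no low-count filter, only the groups compared, each library left out, and the sequencing pool as a term under all 45 possible assignments. All 32 members could be named. From each other list at most 3 genes were named, past the threshold with 1 sign in at least 3 of 4 PD03 or 2 of 5 soft against stiff comparisons, by mean size of change. Aars and Yars were named besides, as synthetases that went the other way with PD03. Libraries of a group differed by more than sampling noise (chi-square per gene 2.27 to 14.6 over 45 pairs). Promoters came from RefSeq GRCm38.p6, where 28 of 32 members matched; Slc1a5, Slc7a3, Slc7a5 and Eif4ebp1 did not.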

Additional observations from a re-analysis of the deposited data

Results flagged for a closer look

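In the 6 libraries of soft gel in serum + PD03, the only group large enough for a test of single libraries, 2 of 32 members had a library far from the others. Mthfd1 stood at 316.5 CPM in library 3 and at 290.7 CPM in the next highest (Dixon ratio 0.67), and Slc1a5 at 28 CPM in library 3 and 21.1 CPM in the next (Dixon ratio 0.775). Both ratios passed the 95% critical value for a group of 6. Chance alone flags about 1 in 20 such groups. The PD03 effect on Shmt2 without LIF was 0.26 log2 units higher on soft than on stiff gel by the tested interaction.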

How the results depend on the processing

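The PD03 counts of members past the threshold (28, 25, 23 and 24) kept within 1.5-fold in every alternative run. Of 100 calls 0 were lost with RLE scaling or DESeq2, 4 with no low-count filter and 1 with only the groups compared. A further 4 were lost with the pool term and 13 on leaving out a library. PD03 on soft gel with LIF and on stiff gel without LIF each lay within 1 pool. Their 28 and 24 calls are therefore not tested by the pool term. Of 11 soft against stiff calls, 10 were lost on leaving out a library and 10 with the pool term. No call held in both, since Phgdh at 24 h, left under the pool term but not tested by it, was lost in leave-outs. With the pool term, the count fell from 3 to between 0 and 1 in serum, from 3 to as few as 0 in serum + PD03, from 4 to between 0 and 1 in serum + LIF + PD03, from 8 to between 0 and 1 for soft against plastic, from 3 to between 0 and 1 for stiff against plastic, from 13 to between 0 and 3 for time on soft gel and from 14 to between 7 and 9 for time on stiff gel. Only stiff serum + LIF at 48 h and soft serum + PD03 were split over pools, so at 48 h the term is nearly tied to substrate. Whether calls were lost to a pool difference or to the lower precision of such a fit was not tested. The log2 changes of Psph (-0.01) and Eif4ebp1 (0.00) against plastic and of Ddit4 (0.01) and Mthfd2 (-0.01) with time on soft gel then turned sign or reached 0. The count in serum + LIF + PD03 was 2 with no low-count filter and 7 with only the groups compared, and that of the PD03 by substrate difference without LIF (1) was 0 with no filter, 0 with only the groups compared, 2 with DESeq2 and 0 to 2 with the pool term. Leaving out each library gave 0 to 1 calls for soft against stiff at 24 h, 0 to 1 in serum + LIF, 1 to 2 in serum, 1 to 5 in serum + PD03, 1 to 3 in serum + LIF + PD03, 3 to 9 for soft and 0 to 1 for stiff against plastic, and 0 to 2 for the PD03 by substrate difference without LIF. No paired analysis was possible because the columns carry no replicate numbers.

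Depth limited the rare members, since Slc7a11, Slc6a9 and Vldlr had as few as 3, 3 and 6 counts in a library, and changes of these genes short of the threshold were not detectable at this depth.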
